A study of Mus musculus with 16 samples.

Results

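The genes described here are 9 that mark or drive the exchange of epithelial for mesenchymal features: the cadherins Cdh1 and Cdh2, the epithelial genes Epcam and Esrp1, the intermediate filament gene Vim, and the transcriptional repressors Zeb1, Zeb2, Snai1 and Snai2. They were chosen by name, and their probes were found through the RefSeq accession of each probe on the array, which gave 12 probes for 9 of the 20972 gene symbols on the array. RNA came from 16 mouse pluripotent stem cell lines of the 129/Ola strain, 4 in each of 4 cultures, and each line was hybridised to 1 single-colour Agilent array. Naive lines (LIF_serum) grew in LIF, leukaemia inhibitory factor, with serum. Primed lines (EpiSC) had been taken from E6.5 epiblast and grew with Activin A plus bFGF, basic fibroblast growth factor. Both remaining groups are labelled ground state: 2i_LIF grew in 2i, a pair of kinase inhibitors, plus LIF, and 2iSB_LIF in the same with SB431542, which blocks type I receptors for Activin, Nodal and TGF-beta. Apart from EpiSC, all groups derive from embryos before implantation. Passage numbers ran from 17 to 28. The embryo stage, the medium and the cell state change together between EpiSC and the other groups and cannot be told apart.

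E-cadherin, the product of Cdh1, joins epithelial cells to one another, and N-cadherin, the product of Cdh2, is the cadherin of many mesenchymal and neural cells. In epithelial to mesenchymal transition (EMT), which the epiblast undergoes at gastrulation, Snail and Zeb proteins bind E-box letters in promoters of epithelial genes and repress them. The splicing regulator Esrp1 maintains epithelial isoforms, and vimentin, the product of Vim, is the filament protein of mesenchymal cells.

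RefSeq promoter entries (GRCm38.p6) were used for 4 of the 9 genes, Epcam, Snai1, Vim and Zeb2, and the other genes were not searched. The 250 bases upstream of each start were searched for CACCTG and its reverse complement CAGGTG, 2 spellings of 1 motif on both strands, which are the E-box letters read by Snail and Zeb proteins. Those of Epcam and Snai1 held it and are shown. The capitals mark the motif.
Epcam, chr17:87635729-87635978, plus strand: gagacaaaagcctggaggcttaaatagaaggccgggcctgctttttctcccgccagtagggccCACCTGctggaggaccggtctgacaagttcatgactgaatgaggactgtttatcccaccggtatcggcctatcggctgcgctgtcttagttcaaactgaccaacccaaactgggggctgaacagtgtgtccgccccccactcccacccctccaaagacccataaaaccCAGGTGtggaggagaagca
Snai1, chr2:167537945-167538194, plus strand: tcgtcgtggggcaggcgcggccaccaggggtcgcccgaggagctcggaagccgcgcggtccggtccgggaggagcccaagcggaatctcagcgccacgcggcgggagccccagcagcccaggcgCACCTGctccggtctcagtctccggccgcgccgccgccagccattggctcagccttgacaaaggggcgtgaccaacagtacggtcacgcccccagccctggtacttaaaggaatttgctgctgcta
Counted from the transcription start, CACCTG began at −187 and CAGGTG at −19 in Epcam, and CACCTG at −126 in Snai1. The windows of Vim and Zeb2 (1 and 4) did not hold these letters. Among all 32851 windows of the same length in the table, 17.2% held the motif. A match describes letters only and is not evidence of binding in these cells.

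Levels are log2 of the scanner's background-subtracted processed signal less the 75th percentile of the same array, so 0 is the 75th percentile and 1 unit is a 2-fold step. Levels are comparable between arrays for 1 probe and are not set against another probe's. A gene was called higher or lower when its Benjamini-Hochberg adjusted p in a limma fit over all 16 arrays was under 0.05 and its difference at least 2-fold. Differences are given with their SE, and n = 4 lines per group throughout. P-values measure the spread between these lines, and nothing in the labels says how many embryos or cultures lie behind each. Of the 9 genes all were tested, 8 of them well above background on all 16 arrays, and Zeb2 only because it passed in EpiSC, so its differences from EpiSC are partly fixed by that filter.

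The arrays lay on 2 slides. Slide 1 held LIF_serum 1 and 2, 2i_LIF 1, 2 and 3 and 2iSB_LIF 1, 2 and 4, and slide 2 held all others, including every EpiSC line. Between 51.6% and 63.9% of probes were well above background per array, and none was saturated. Pou5f1, Sox2 and Nanog, defining genes of pluripotent cells, were well above background on all 16 arrays. LIF_serum 1 and 2 carry another label code (LS) than LIF_serum 3 and 4 (LSFF), the meaning of which the labels do not give, and these pairs also lie on different slides, so code and slide cannot be told apart. The pairs stood apart on several of the genes below, and results against LIF_serum are therefore given against each pair where that matters.

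In EpiSC, Cdh1 was lower and Cdh2 higher than in every other culture, together with higher Vim, Zeb1 and Zeb2. Against LIF_serum, 5 of the 9 genes were called higher (Cdh2, Vim, Zeb1, Zeb2, Snai2) and 2 lower (Cdh1, Esrp1). Of all 15521 genes tested, 33.6% were called in that comparison, 18% higher and 15.6% lower. The levels of 7 of the 9 genes did not overlap between the groups, against 58.8% of all genes. These counts include Zeb2, which was tested only because it passed in EpiSC, so its part in them is partly fixed. The median difference over all genes was 0.07. Since all EpiSC lines lay on slide 2, the comparison within that slide sets them against LIF_serum 3 and 4. There 8 of the 9 genes were called, Zeb2 again among them, and 5717 of all 15521 genes tested.

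**Figure D1:**
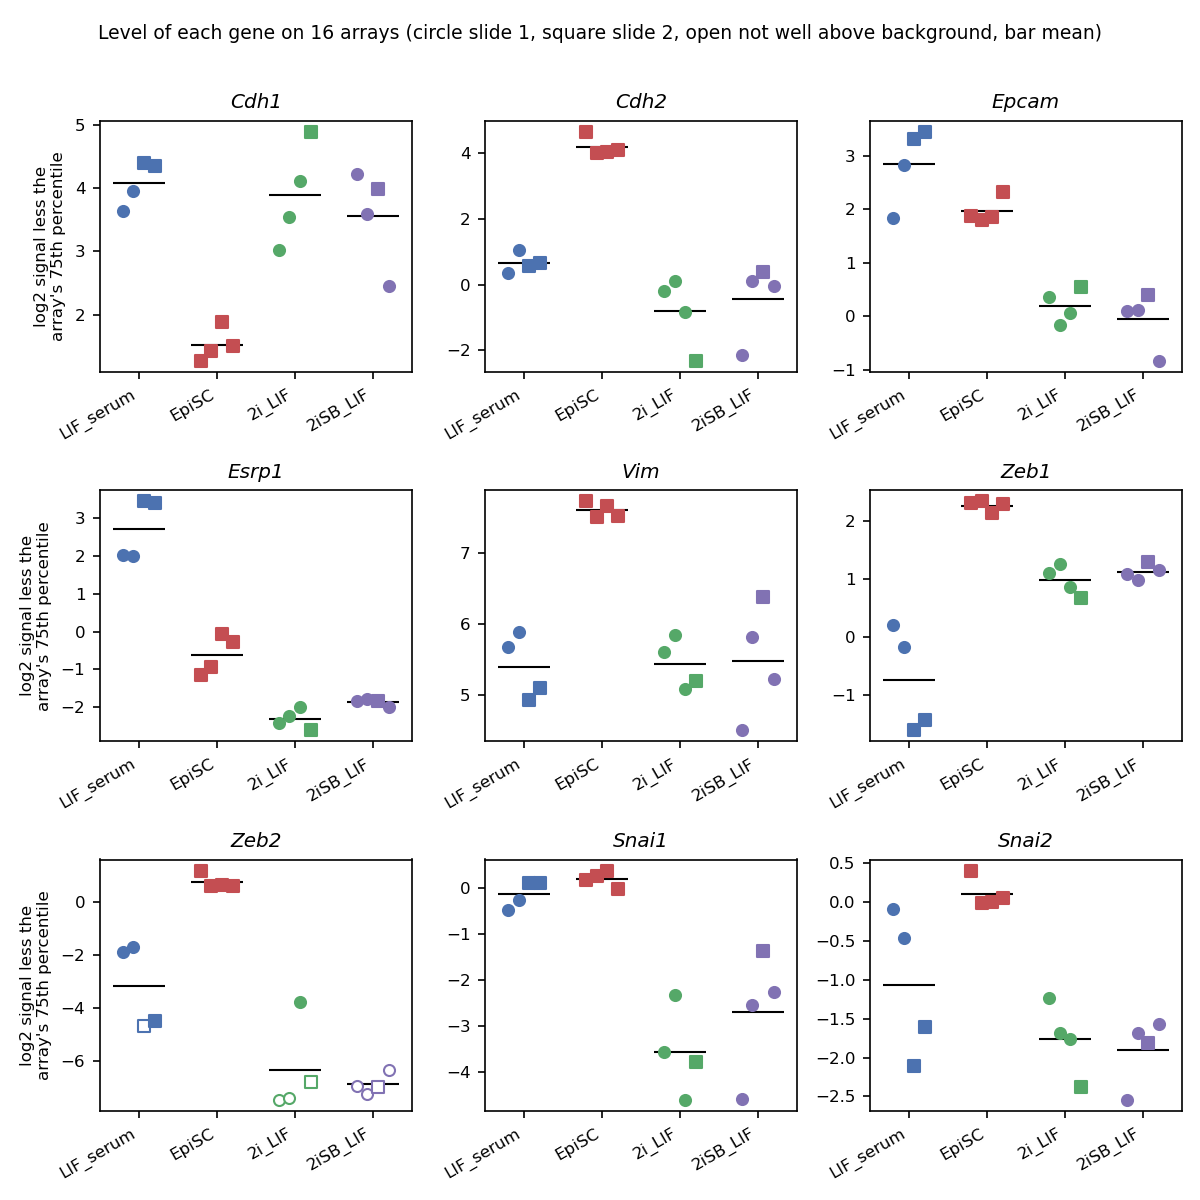
Level of each gene (vertical axis, log2 signal less the array's 75th percentile) on each of the 16 arrays, by culture. Circles are slide 1, squares slide 2, open symbols arrays on which the probe was not well above background, and bars group means; EpiSC stands apart from all other arrays for Cdh1, Cdh2, Vim, Zeb1 and Zeb2.

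Cdh1 stood at 3.64, 3.96, 4.40 and 4.35 on LIF_serum 1 to 4, and at 1.28, 1.43, 1.89 and 1.51 on EpiSC 1 to 4. Every EpiSC array lay below the lowest array of any other culture. The level fell by 2.56 (SE 0.40) in EpiSC, 5.91-fold, with a limma adjusted p of 7.9e-05. Cdh1 was still well above background on all 4 EpiSC arrays, so the transcript was reduced and not lost at the sensitivity of this probe.

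In ground state lines, Cdh1 was at 3.02, 3.55, 4.12 and 4.89 in 2i_LIF and at 4.22, 3.60, 3.99 and 2.46 in 2iSB_LIF. Both groups overlapped LIF_serum and spread more widely than it did (SD 0.80 and 0.78 against 0.36). The differences from LIF_serum were −0.20 (SE 0.40, limma adjusted p = 0.74) for 2i_LIF and −0.52 (SE 0.40, limma adjusted p = 0.34) for 2iSB_LIF, and their 95% intervals ran from −1.04 to 0.65 and from −1.37 to 0.33. Neither interval reached the difference found in EpiSC. EpiSC differed from 2i_LIF by −2.37 and from 2iSB_LIF by −2.04 (limma adjusted p = 0.00013 and 0.00048).

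Cdh2 stood at 0.35, 1.06, 0.57 and 0.65 on the LIF_serum arrays and at 4.65, 4.02, 4.05 and 4.10 on the EpiSC arrays. The groups were far apart, with EpiSC 1 above the other EpiSC arrays. The rise was 3.55 (SE 0.53), 11.7-fold, at a limma adjusted p of 6e-05. A second Cdh2 probe gave a rise of 3.33.

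On the ground state arrays Cdh2 was at −0.18, 0.11, −0.84 and −2.31 in 2i_LIF and −2.14, 0.11, 0.37 and −0.0365 in 2iSB_LIF. No 2i_LIF array reached the lowest LIF_serum array, while 2iSB_LIF 3 did, and 1 array of each ground state group was far below the others. The difference from LIF_serum was −1.46 (SE 0.53, limma adjusted p = 0.05, just over the threshold before rounding) in 2i_LIF and −1.08 (SE 0.53, limma adjusted p = 0.13) in 2iSB_LIF, and neither was called. The 2i_LIF difference was called without 2i_LIF 1 (−1.67, limma adjusted p = 0.044), without 2i_LIF 2 (−1.77, 0.033), with slide as a block (−1.54, 0.046), and within slide 2, where 1 array of 2i_LIF stood against 2 of LIF_serum (−2.92, 0.00043). Cdh2 was 32.3-fold higher in EpiSC than in 2i_LIF and 24.8-fold higher than in 2iSB_LIF (log2 differences of 5.01 and 4.63, limma adjusted p = 1.4e-06 and 3.2e-06).

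As a description of both cadherins on one array, the log2 ratio of Cdh2 to Cdh1 signal was taken relative to its mean in LIF_serum. It was 6.11 ± 0.51 (SD, n = 4) in EpiSC, with a range of 5.60 to 6.81. In LIF_serum the SD was 0.42, and the ratio was −1.27 ± 1.84 (SD, n = 4) in 2i_LIF and −0.56 ± 1.65 (SD, n = 4) in 2iSB_LIF. No array of the other 3 cultures came near the EpiSC range, the highest being 0.94 in 2iSB_LIF. In bulk RNA, more cells of one kind and more RNA per cell cannot be told apart.

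Epcam, which encodes an epithelial surface adhesion protein, separated the cultures along another line. It was at 1.83, 2.83, 3.31 and 3.45 on LIF_serum 1 to 4 and 1.87, 1.80, 1.85 and 2.33 on EpiSC 1 to 4. Epcam read 0.36, −0.16, 0.054 and 0.54 (2i_LIF 1 to 4) and 0.092, 0.12, 0.40 and −0.83 (2iSB_LIF 1 to 4). All ground state arrays were below all others, and EpiSC overlapped LIF_serum through the low LIF_serum 1. Relative to LIF_serum the difference was −2.66 in 2i_LIF (SE 0.33, 6.31-fold lower, limma adjusted p = 5.2e-05) and −2.91 in 2iSB_LIF (SE 0.33, 7.50-fold lower, limma adjusted p = 2e-05).

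The EpiSC difference in Epcam was −0.89 (SE 0.33, limma adjusted p = 0.034), under the 2-fold minimum and so not called. It was called without LIF_serum 1 (−1.23), without EpiSC 4 (−1.02), with slide as a block (−1.26), and against LIF_serum 3 and 4 alone, the comparison within slide 2 (−1.42). Epcam was higher in EpiSC than in 2i_LIF by 1.76 and than in 2iSB_LIF by 2.01 (limma adjusted p = 0.00036 and 0.00011). Epcam and Snai1, whose promoter windows are printed above, were both lowest in the ground state. So was Zeb2 by group mean on its tested probe, and its windows did not hold the motif. Vim, also without it, was alike in LIF_serum, 2i_LIF and 2iSB_LIF (means 5.40, 5.44 and 5.49). Cdh2, Esrp1 and Snai2, not searched, also had their lowest group means in the ground state. A link between these letters and the levels was not tested.

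Among the 8 genes well above background on every array, Esrp1 gave the largest difference between serum and ground state. It was at 2.03, 1.99, 3.44 and 3.41 on LIF_serum 1 to 4 and −1.15, −0.92, −0.074 and −0.28 on EpiSC 1 to 4. Ground state arrays read −2.42, −2.24, −1.99 and −2.60 (2i_LIF 1 to 4) and −1.84, −1.77, −1.82 and −1.98 (2iSB_LIF 1 to 4). On this probe the order LIF_serum, EpiSC, 2iSB_LIF, 2i_LIF had no overlap between neighbours, though 2iSB_LIF 4 (−1.98) and 2i_LIF 3 (−1.99) nearly met. The Esrp1 difference from LIF_serum was −5.03 in 2i_LIF (SE 0.33, 32.8-fold lower, limma adjusted p = 2e-07), −4.58 in 2iSB_LIF (SE 0.33, 23.9-fold lower, limma adjusted p = 4e-07) and −3.33 in EpiSC (SE 0.33, 10.0-fold lower, limma adjusted p = 1.3e-06).

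EpiSC exceeded 2i_LIF by 1.71 and 2iSB_LIF by 1.25 in Esrp1 (limma adjusted p = 0.00052 and 0.0054). The difference from 2iSB_LIF lost its call with slide as a block (0.90, limma adjusted p = 0.061) and on the other Esrp1 probe (1.21, limma adjusted p = 0.17), which was well above background on 1 array of 2iSB_LIF and none of 2i_LIF. That other probe gave −2.71 for EpiSC against LIF_serum, in the same direction as the first. On it 2iSB_LIF 2 (−2.52) lay above every EpiSC array, so the order of the cultures did not hold there.

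Vim was higher in EpiSC than in each of the other cultures. It read 5.68, 5.88, 4.93 and 5.11 on LIF_serum 1 to 4 and 7.72, 7.50, 7.65 and 7.51 on EpiSC 1 to 4. Vim on the ground state arrays was at 5.61, 5.85, 5.08 and 5.20 (2i_LIF 1 to 4) and 4.51, 5.82, 6.38 and 5.23 (2iSB_LIF 1 to 4). Those of EpiSC lay close together (SD 0.11) and above all others, while the other 3 cultures overlapped throughout. The rise over LIF_serum was 2.19 (SE 0.33), 4.58-fold, with a limma adjusted p of 6.3e-05, and the rises over 2i_LIF and 2iSB_LIF were 2.16 and 2.11 (limma adjusted p = 5.6e-05 and 7.1e-05).

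In the ground state groups Vim differed from LIF_serum by 0.034 and 0.085 (limma adjusted p = 0.95 and 0.88), with 95% intervals from −0.67 to 0.74 and from −0.62 to 0.79. Within slide 2 alone, where 1 array of 2iSB_LIF stood against 2 of LIF_serum, the 2iSB_LIF difference was 1.36 and called.

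Zeb1 was higher than in LIF_serum in all 3 other cultures. It was at 0.21, −0.16, −1.60 and −1.42 on LIF_serum 1 to 4 and 2.31, 2.34, 2.14 and 2.29 on EpiSC 1 to 4. Ground state levels of Zeb1 were 1.12, 1.27, 0.87 and 0.68 (2i_LIF 1 to 4) and 1.09, 0.98, 1.31 and 1.16 (2iSB_LIF 1 to 4). Every EpiSC array was above every ground state array, and every ground state array above every LIF_serum array. The difference from LIF_serum was 3.01 in EpiSC (SE 0.32, 8.07-fold, limma adjusted p = 2.2e-06), 1.73 in 2i_LIF (SE 0.32, 3.31-fold, limma adjusted p = 0.0011) and 1.87 in 2iSB_LIF (SE 0.32, 3.67-fold, limma adjusted p = 5e-04).

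Zeb1 was the only one of the 9 genes called higher in ground state lines than in LIF_serum, where 6.26% of all tested genes were called higher in 2i_LIF and 6.82% in 2iSB_LIF. Against LIF_serum 1 and 2 alone the 2i_LIF difference was 0.96 (limma adjusted p = 0.0033), under 2-fold and so not called. EpiSC exceeded 2i_LIF by 1.29 and 2iSB_LIF by 1.14 (limma adjusted p = 0.0031 and 0.0071), and within slide 2 the latter was 0.97, under 2-fold.

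Zeb2, a second repressor of the Zeb family, was well above background on all 4 EpiSC arrays, on 3 LIF_serum arrays, on 1 array of 2i_LIF and on none of 2iSB_LIF. It read −1.87, −1.67, −4.66 and −4.48 on LIF_serum 1 to 4 and 1.19, 0.62, 0.65 and 0.64 on EpiSC 1 to 4. Ground state values of Zeb2 were −7.45, −7.40, −3.75 and −6.80 (2i_LIF 1 to 4) and −6.92, −7.23, −6.97 and −6.31 (2iSB_LIF 1 to 4). The array not well above background in LIF_serum was LIF_serum 3, and the single one above it in 2i_LIF was 2i_LIF 3. Zeb2 was higher in EpiSC than in LIF_serum by 3.94 (SE 0.79, 15.4-fold, limma adjusted p = 0.00069). The other Zeb2 probe was well above background on all 4 EpiSC arrays and on no LIF_serum array.

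On the tested probe 2iSB_LIF gave only a background bound. By that probe Zeb2 was at least 83.5-fold higher in EpiSC than there (limma adjusted p = 1e-06) and at least 5.43-fold higher in LIF_serum (limma adjusted p = 0.0026, 3 of 4 LIF_serum arrays measured). The other probe was well above background on 1 array of 2iSB_LIF. It gave 3.05 for EpiSC against 2iSB_LIF and 0.45 for 2iSB_LIF against LIF_serum. A bound sets the brighter group's mean against, for each dim array, the higher of the lowest signal well above background and the probe's own signal. Values against 2i_LIF rest on 3 of 4 arrays that were not well above background, so their size is uncertain. The fitted difference was 7.12 for EpiSC (limma adjusted p = 2.1e-06). That of −3.18 between 2i_LIF and LIF_serum (limma adjusted p = 0.0073) was called although the arrays overlapped, and it lost the call in a fit of only those groups (limma adjusted p = 0.056), against LIF_serum 3 and 4 alone (−1.78, limma adjusted p = 0.094), and on the other probe, which was above background on no array of either group.

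Snai1 separated ground state lines from the others. It read −0.47, −0.26, 0.10 and 0.10 on LIF_serum 1 to 4 and 0.17, 0.26, 0.37 and −0.020 on EpiSC 1 to 4. Levels in the ground state were −3.56, −2.32, −4.60 and −3.78 (2i_LIF 1 to 4) and −4.58, −2.55, −1.38 and −2.27 (2iSB_LIF 1 to 4). No ground state array reached the lowest of the other 8 arrays, and EpiSC and LIF_serum overlapped. Relative to LIF_serum the difference was −3.43 in 2i_LIF (SE 0.55, 10.8-fold lower, limma adjusted p = 0.00035) and −2.56 in 2iSB_LIF (SE 0.55, 5.90-fold lower, limma adjusted p = 0.0026).

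For EpiSC the Snai1 difference from LIF_serum was 0.33 (SE 0.55, limma adjusted p = 0.63), with a 95% interval from −0.84 to 1.5. EpiSC exceeded 2i_LIF by 3.76 and 2iSB_LIF by 2.89 (limma adjusted p = 3.3e-05 and 0.00039). Within slide 1 alone the 2iSB_LIF difference was −2.76 and not called (limma adjusted p = 0.068).

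Snai2 was at −0.089, −0.46, −2.11 and −1.60 on LIF_serum 1 to 4 and 0.40, −0.011, −0.0036 and 0.049 on EpiSC 1 to 4. On ground state arrays it was at −1.23, −1.68, −1.76 and −2.38 (2i_LIF 1 to 4) and −2.54, −1.69, −1.81 and −1.56 (2iSB_LIF 1 to 4). LIF_serum 1 and 2 lay near the EpiSC arrays, and LIF_serum 3 and 4 among those of the ground state. The EpiSC difference from LIF_serum was 1.17 (SE 0.38, 2.26-fold, limma adjusted p = 0.018). It rested on LIF_serum 3 and 4: against LIF_serum 1 and 2 alone it was 0.39 (limma adjusted p = 0.33). It was also not called without LIF_serum 3 (0.83, limma adjusted p = 0.064), without LIF_serum 4 (1.00, limma adjusted p = 0.057) or without EpiSC 1 (1.08, limma adjusted p = 0.051).

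Neither ground state group was called against LIF_serum as a whole for Snai2 (−0.70 and −0.84, limma adjusted p = 0.19 and 0.11). Against LIF_serum 1 and 2 alone both were called, at −1.49 and −1.63 (limma adjusted p = 0.0055 and 0.0027). EpiSC exceeded 2i_LIF by 1.87 and 2iSB_LIF by 2.01 (limma adjusted p = 0.00074 and 0.00041).

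**Figure D2:**
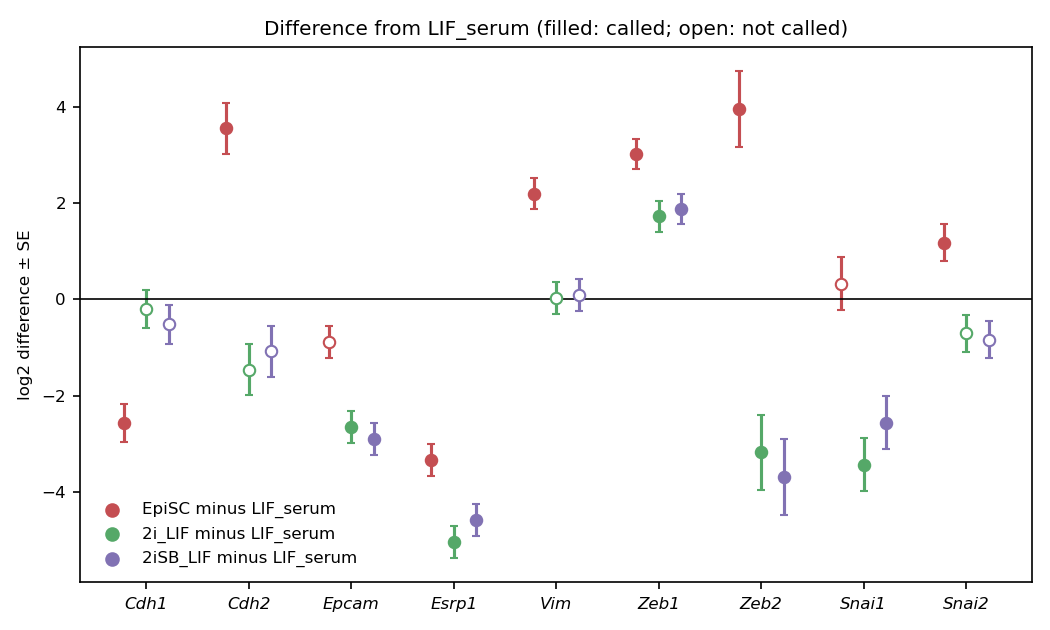
Difference of each gene from LIF_serum (vertical axis, log2, with SE) in EpiSC, 2i_LIF and 2iSB_LIF, 4 lines per group. Filled points are called and open points are not; Zeb1 is called higher in all 3 groups, Esrp1 lower in all 3, and Epcam and Snai1 called lower in both ground state groups and not called in EpiSC.

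Counted together, 1 of the 9 genes was called higher and 4 lower in 2i_LIF than in LIF_serum, and the counts for 2iSB_LIF were the same. In each comparison the lower genes were Epcam, Esrp1, Zeb2 and Snai1. Over all genes 18.3% were called in 2i_LIF (6.26% higher, 12.1% lower) and 20.1% in 2iSB_LIF (6.82% higher, 13.3% lower). Groups did not overlap for 5 of the 9 genes in each, against 27.2% and 29.6% of all genes. The comparisons share their LIF_serum arrays.

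All 9 genes were called between EpiSC and each ground state group, 8 higher in EpiSC and Cdh1 lower. Zeb2 was tested only because it passed in EpiSC, so its calls here are partly fixed. Over all genes the share called was 37.4% against 2i_LIF (20.6% higher, 16.9% lower) and 36.4% against 2iSB_LIF (20.1% higher, 16.2% lower), and arrays did not overlap for 55.2% and 54.2%. Genes of both kinds were higher in EpiSC here: the epithelial genes Epcam and Esrp1 as well as Vim and the 4 repressors.

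SB431542 is the difference between the ground state media, and none of the 9 genes was called between 2iSB_LIF and 2i_LIF. In that comparison 0.0838% of all genes were called, 13 in number, 0.0129% higher and 0.0709% lower. Arrays did not overlap for 2.16% of all genes and for 1 of the 9, Esrp1 on its tested probe. Its difference was 0.46 (SE 0.33, limma adjusted p = 1, unadjusted p = 0.19), with a 95% interval from −0.26 to 1.17. None of the 9 had an unadjusted limma p under 0.05, the lowest being 0.13 for Snai1.

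Intervals show what size these lines could hide. For 2iSB_LIF against 2i_LIF they ran from −1.17 to 0.52 for Cdh1, −0.75 to 1.52 for Cdh2, −0.96 to 0.46 for Epcam and −0.66 to 0.76 for Vim. For the repressors they ran from −0.53 to 0.83 for Zeb1, −0.30 to 2.04 for Snai1 and −0.96 to 0.68 for Snai2. A 2-fold difference in either direction was outside the interval for Epcam, Vim, Zeb1 and Snai2, and inside it for the others in at least one direction. Within slide 2 only 1 array stood against 1, so the spread comes from the other groups alone, and 2236 of all genes were called. There Cdh2 differed by 2.68, Snai1 by 2.40 and Vim by 1.18. None of the 9 was called within slide 1.

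Markers of fibroblasts, cells that express Vim, Cdh2 and the repressors themselves and that often serve as feeder layers for stem cells, moved with several of these genes. The summed scaled signal of 20 fibroblast markers (linear, with 1 standing for the array's 75th percentile) was 132, 103, 19.7 and 21.5 on LIF_serum 1 to 4 and 309, 245, 341 and 221 on EpiSC 1 to 4. It lay between 3.93 and 6.0 in 2i_LIF and between 4.07 and 5.66 in 2iSB_LIF. EpiSC was thus highest, LIF_serum 1 and 2 next, and the ground state lowest.

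All 20 markers were well above background on every EpiSC array and on LIF_serum 1 and 2, 16 and 17 were on LIF_serum 3 and 4, and 7 to 12 on ground state arrays. Of 8 defining markers (Col1a1, Col1a2, Col3a1, Dcn, Lum, Postn, Thy1, Pdgfrb), 8 were above background in EpiSC and on LIF_serum 1 and 2, 6 on LIF_serum 3 and 4, and 3 to 5 on ground state arrays. In the fit, 18 of the 20 were called higher in EpiSC than in LIF_serum (median 2.90) and 17 lower in each ground state group. In EpiSC, 10 were called higher against LIF_serum 1 and 2 alone (median 1.39) and 19 against LIF_serum 3 and 4 alone (median 4.69). All 20 were higher in EpiSC than in either ground state group. Dcn, Lum and Postn were well above background on every array in EpiSC only and so were tested only because they passed there. Their part in the EpiSC counts is partly fixed by that filter. Of all genes, 18% were called higher in EpiSC than in LIF_serum, 12.1% lower in 2i_LIF and 13.3% lower in 2iSB_LIF.

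LIF_serum arrays, which share medium and strain, show how each gene differed where the markers differed. Arrays 1 and 2, with more fibroblast signal, exceeded 3 and 4 by 2.80 in Zeb2, 1.58 in Snai2, 1.53 in Zeb1 and 0.76 in Vim. They were lower in Esrp1 (−1.42), Epcam (−1.05), Cdh1 (−0.57) and Snai1 (−0.47). Cdh2 was alike in both pairs, at 0.70 and 0.61.

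**Figure D3:**
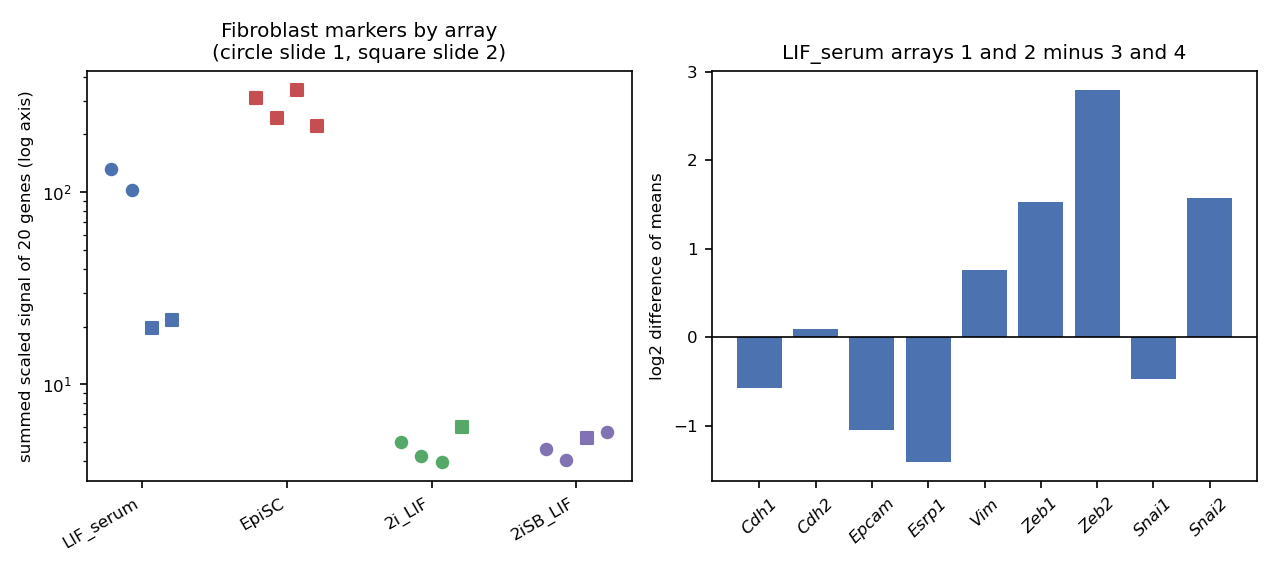
Left, summed scaled signal of 20 fibroblast markers (log axis) on each array, circles for slide 1 and squares for slide 2. Right, log2 difference of each gene between LIF_serum arrays 1 and 2 and arrays 3 and 4, means of 2 arrays each; Zeb2, Snai2, Zeb1 and Vim were higher with the higher fibroblast signal, and Cdh2 differed by 0.095.

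These pairs of 2 arrays also differ by slide and label code. In Cdh2, EpiSC was 3.5 higher than LIF_serum 1 and 2 alone. Zeb1 was higher in the ground state, where the markers were lowest, than on LIF_serum 1 and 2 (group means of 0.99 and 1.13 against 0.026). The Snai2 difference in EpiSC was 0.39 against LIF_serum 1 and 2 alone and was not called (limma adjusted p = 0.33). Against LIF_serum 1 and 2 alone the EpiSC differences of the other called genes were −2.28 in Cdh1, −2.62 in Esrp1, 1.81 in Vim, 2.25 in Zeb1 and 2.54 in Zeb2, and all were called. Those arrays had less fibroblast signal than EpiSC, and the part of fibroblast RNA in these differences was not tested.

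Other marker lists moved less uniformly. Of all genes 18% were called higher and 15.6% lower in EpiSC than in LIF_serum, and these lists are short. Of 10 pluripotency markers 4 were called lower in EpiSC than in LIF_serum (Dppa4 at least 422-fold, Sox2 by −1.48, Utf1 by −1.34, Nanog by −1.08), with a median of −0.66. Of 7 endoderm markers tested, 4 were higher in EpiSC (median 1.66), among them Afp and Foxa2. Pdgfra stands in both the endoderm and the fibroblast list, and Hand1 in both the mesoderm and the trophoblast list. These lists are therefore not separate readings. Primitive streak and mesoderm markers split, 3 higher (Eomes 2.18, T 2.01, Lhx1 1.46) and 3 lower of 7 (Hand1 −3.96, Mesp1 at least 5.06-fold, Tbx6 −1.23), with a median of −1.23. Of 8 neural and neural crest markers 4 were higher (Sox9 4.27, Sox1 3.15, Nes 2.66, Pax3 1.96), and of 6 trophoblast markers 2 were lower. Against LIF_serum 1 and 2 alone, 6 endoderm and 1 primitive streak or mesoderm marker were higher and 2 neural ones lower, and against LIF_serum 3 and 4 alone, 2 endoderm markers were higher. Their part in the cadherin and repressor results was not tested.

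Calls among the partners of the cadherins were near the shares of all genes in EpiSC. Among 13 other cadherins, nectins and catenins tested, 2 were called higher in EpiSC than in LIF_serum, Cdh4 (R-cadherin) by 2.92 and Cdh13 (T-cadherin) by 2.68, and 1 lower, Cdh3 (P-cadherin) by −2.71. Of all genes 18% were called higher and 15.6% lower there. The list's median was 0.21, against 0.07 for all genes. Ctnnb1, which encodes the beta-catenin that links cadherins to the cytoskeleton, differed by 0.39 (limma adjusted p = 0.03), under 2-fold. None of the 13 was called in 2i_LIF (median −0.17), and Cdh3 (−1.86) and Jup (−1.16) were lower in 2iSB_LIF (median −0.45). Of all genes 12.1% were called lower in 2i_LIF and 13.3% in 2iSB_LIF.

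Transcription factors also tied to EMT split by culture. In EpiSC, 3 of 11 were called higher than in LIF_serum (Prrx1 by 4.10, Twist2 by 3.70, Gsc by 2.40) and Snai3 fell by 2.85, with a list median of 0.37. For this list and those below, the shares of all genes called higher and lower than in LIF_serum were 18% and 15.6% in EpiSC. They were 6.26% and 12.1% in 2i_LIF and 6.82% and 13.3% in 2iSB_LIF. The EpiSC counts of this list are near those shares. Twist1, a mesodermal regulator, differed by −0.053 (limma adjusted p = 0.92). Against LIF_serum, 6 of 11 were lower in 2i_LIF and 5 in 2iSB_LIF, with medians of −2.15 and −1.55. Twist2 was at least 13.3-fold and at least 16.7-fold lower there, being above background on none of those arrays, and Id1 and Id2, inhibitors of basic helix-loop-helix factors, differed by −4.07 and −4.09 in 2i_LIF, both called. Gsc, a homeobox gene of the gastrula organizer, was higher in both ground state groups too (3.81 and 4.16).

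Of 10 factors that maintain epithelium, 5 were lower in EpiSC than in LIF_serum, 1 was higher and 4 were not called. The lower ones were Elf3 (−4.15), Grhl3 (−4.03), Grhl1 (−3.53), Grhl2 (−2.54) and Ovol1, which was at least 4.28-fold lower. Foxa1, an endodermal factor, was higher by 2.38, and Ovol2, which represses Zeb1 in other epithelia, differed by −0.075 (limma adjusted p = 0.62). The median was −1.67. In the ground state the list was mixed, 3 higher and 1 lower in 2i_LIF and 3 higher and 2 lower in 2iSB_LIF, with Grhl3 higher in both (1.38 and 1.46) and Ovol1 at least 2.90-fold and 3.63-fold lower.

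Of 20 epithelial junction and surface genes, 9 were lower in EpiSC than in LIF_serum and 3 higher, with a median of −1.28. The lower ones were led by Esrp2 (−3.72), the paralogue of Esrp1, Tjp3 (−3.27), Rab25 (−2.91) and Cldn4 (−2.53). Dsp (1.74), Marveld2 (1.61) and Lsr (1.25) were higher. Against LIF_serum 1 and 2 alone 6 were lower and 3 higher, and against 3 and 4 alone 12 were lower and 0 higher.

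In the ground state 10 of the 20 were lower in 2i_LIF and 11 in 2iSB_LIF (medians −1.38 and −1.31), with Cldn6 (−4.37 and −4.40), a claudin of early embryonic epithelium, and Crb3 (−3.40 and −3.43), an apical polarity gene, among them. Dsg2, a desmosomal cadherin, was higher (1.49 and 1.66). Against LIF_serum 1 and 2 alone, 3 of the 20 were lower and 3 higher in 2i_LIF, and 5 were lower and 3 higher in 2iSB_LIF. Unlike Esrp1, Esrp2 was not called in 2i_LIF (−0.65, limma adjusted p = 0.085) or 2iSB_LIF (−0.34, limma adjusted p = 0.36). The difference between the paralogues was not tested.

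Mesenchymal targets of EMT held more higher than lower calls in EpiSC and more lower than higher calls in the ground state. Of 13, 10 were called higher in EpiSC than in LIF_serum and 0 lower (median 1.86), led by Tnc (4.72), Mmp9 (3.37), Cd44 (2.50) and Itga5 (1.97), which encode matrix, protease and adhesion proteins. Fn1, the fibronectin gene, differed by −0.30 (limma adjusted p = 0.16). In 2i_LIF 6 were lower and in 2iSB_LIF 8 (medians −2.07 and −2.37), Acta2 by −7.37 and −8.06 and Tagln by −5.51 and −5.60, both genes of contractile filaments. Against LIF_serum 1 and 2 alone, 8 were higher in EpiSC and 0 lower (median 1.72). Against LIF_serum 3 and 4 alone, 9 were higher and 0 lower (median 1.96). The fibroblast marker medians in the same comparisons were 1.39 and 4.69. Fibroblasts express much of this list, and the part of fibroblast RNA in it was not tested.

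Of 16 TGF-beta family ligands, receptors and partners, 9 were higher in EpiSC than in LIF_serum and 0 lower (median 1.13). Hmga2, a chromatin protein that TGF-beta induces, rose by 3.55, the receptors Tgfbr2 and Tgfbr3 by 3.21 and 1.93, and the ligand Tgfb2 by 2.05. In the ground state 5 were lower in each group (3 in 2i_LIF against LIF_serum 1 and 2 alone), Tgfb2 by −4.97 and −4.04, Tgfb3 by −2.61 and −2.49 and Hmga2 by −2.56 and −2.40. Smad3, the signal transducer, was called higher in 2iSB_LIF (1.38), and Skil, a repressor that TGF-beta induces, lower (−1.30). None of the 16 was called between 2iSB_LIF and 2i_LIF.

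Among 7 splicing regulators of epithelial and mesenchymal isoforms, Esrp2 was lower and Mbnl1 higher (1.78) in EpiSC than in LIF_serum, with a median of 0.49. These counts are near the shares of all genes given above. In the ground state groups, Mbnl1 was higher (1.09 and 1.07) and Mbnl2 lower (−1.46 and −1.39). For all 7 lists no gene was called between 2iSB_LIF and 2i_LIF.

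**Figure D4:**
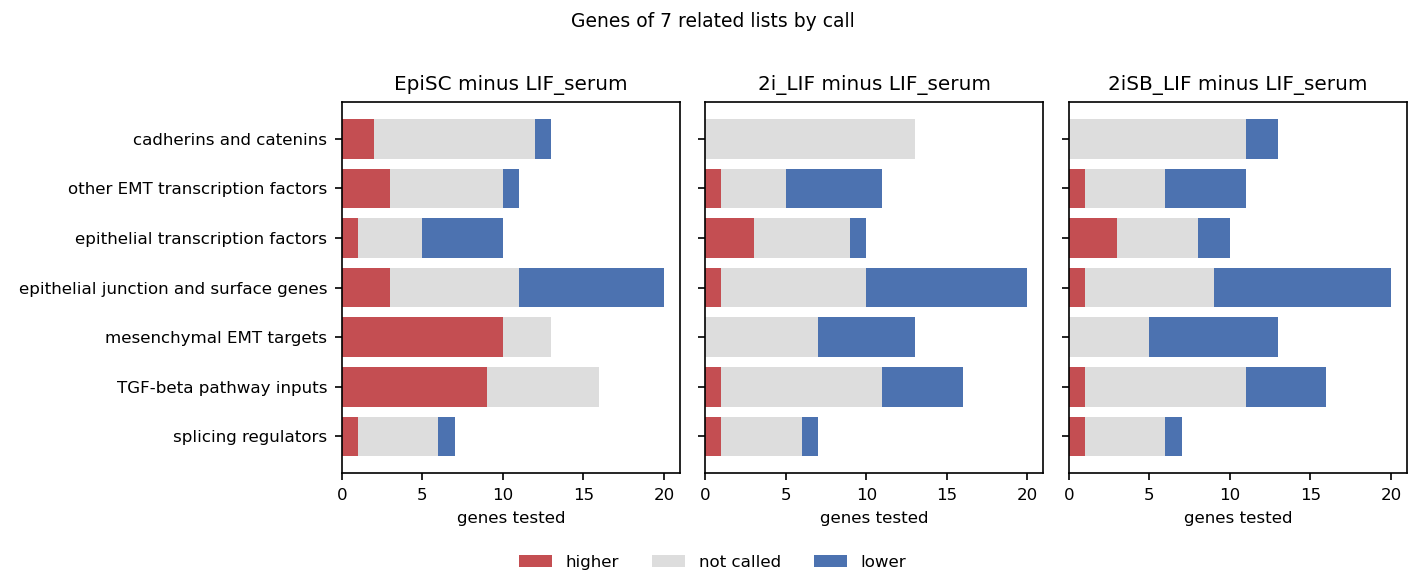
Number of genes called higher, not called and called lower (horizontal axis, genes tested) in each of 7 related lists, for EpiSC, 2i_LIF and 2iSB_LIF against LIF_serum. In EpiSC 10 of 13 mesenchymal targets and 9 of 16 TGF-beta inputs are higher with 0 lower, and in both ground state groups junction genes and mesenchymal targets have more lower than higher calls.

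Scaling moved the whole comparison with EpiSC. When arrays were centred on their median in place of the 75th percentile, the median over all genes in EpiSC against LIF_serum was 0.61 in place of 0.07, and 75.9% of called genes were higher in place of 53.4%. This centring adds nearly the same amount to every gene: Cdh1 was at −2.03, Esrp1 at −2.79, Vim at 2.73, Zeb1 at 3.55 and Cdh2 at 4.09. The same number of the 9 was called in each of the 6 comparisons.

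Counts in the lists moved more with that centring, for EpiSC against LIF_serum. Higher calls numbered 14 of 16 TGF-beta genes in place of 9 (median 1.67), 5 of 11 other EMT transcription factors in place of 3, 4 of 13 cadherins and catenins in place of 2 (median 0.75) and 4 of 7 splicing regulators in place of 1. Lower calls numbered 6 of 20 junction genes in place of 9 (median −0.74, with 4 higher) and 1 of 10 pluripotency markers in place of 4. The cadherin and catenin count was also 4 with quantile normalization, with the mean of all probes and in the authors' deposited table.

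Genes whose pattern over the 16 arrays was nearest to each of the 8 genes well above background throughout were found among 11773 genes, by the root mean square of the difference of log2 levels after centring each gene on its own mean. The distance was smallest for Vim with Plch1 (0.21), Snai2 with Foxs1 (0.28), Zeb1 with Disp1 (0.28) and Cdh1 with Trim13 (0.29). For Epcam it was Gng2 (0.39), for Cdh2 Ccn1 (0.54), for Snai1 Cpm (0.64) and for Esrp1 Lad1 (0.79). Esrp1 and Cdh2 varied most of the 8 (SD over 16 arrays 2.08 and 2.17). None of these 8 genes was among the 3 nearest of another, and Zeb2 was not searched.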

How the data were processed

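Total RNA was extracted with RNeasy and 100 ng per sample labelled with Cy3, per the labels' protocols. Per the file headers, Agilent Feature Extraction 10.7.1.1 made the deposited intensity values. The processed signal among them has background and spatial trend removed and is not scaled between arrays. The authors also deposited log2 values for 42316 of 55681 probes, made with limma and Feature Extraction per the submitters' processing notes. Their normalization is unstated in these sources, the log base was read from the values, and the columns share a highest value of 18.90 with medians between 7.51 and 7.58. Other columns, such as probe names and flags, were read as deposited.

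Probes were named through their RefSeq accession and a reference gene table (GRCm38), which gave 27656 probes of 20972 symbols. The array header names build mm9, so no gene coordinates are taken from that table. Control spots and 100 to 321 outlier spots per array were left out, and spots of 1 probe were averaged. Each array's 75th percentile (646 to 1039 in processed signal) was subtracted on the log2 scale. Probes entered the test when the 4 arrays of some group all read well above background, and a gene's brightest probe stood for it. The 4 group means were fitted with limma 3.58.1 (lmFit, eBayes) in R 4.3.3, with data.table (1.17.8) and jsonlite (2.0.0), and checked on simulated data. The number of arrays limits the precision. Alternatives covered scaling, background, filter, probe choice, slide, replicate number, single arrays left out, the LIF_serum pairs and the authors' table.

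The genes and lists were chosen with earlier results of these data known. The text names the 9 genes, up to 4 called genes of largest difference per list, 9 genes given by role, and the nearest profiles. Genes of near-identical families may share probes. Replicate numbers were not used to pair samples in the main fit. Over 24 pairs with the same number in different groups, the correlation of deviations from the group mean ran from −0.60 to 0.40 (median −0.035). Over 72 pairs with different numbers it ran from −0.61 to 0.45 (median 0.00028). Slide was not separated from number in this check.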

Additional observations from a re-analysis of the deposited data

Results flagged for a closer look

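In each of 36 sets of 4 arrays (9 genes in 4 cultures), the highest and lowest arrays were compared with the spread of their group by Dixon's test, which flags about 1 group in 20 by chance, and 5 values stood apart. Cdh2 was 4.65 on EpiSC 1, where the nearest EpiSC array was at 4.10. Cdh2 was −2.14 on 2iSB_LIF 1, where the nearest array of that culture was at −0.036. Without 2iSB_LIF 1 the group's difference from LIF_serum was −0.51 and not called, as it was not with that array. Epcam was 2.33 on EpiSC 4 against 1.87 on the nearest array, and without EpiSC 4 the difference from LIF_serum was called (−1.02). Zeb2 was 1.19 on EpiSC 1 against 0.65. Snai2 was 0.40 on EpiSC 1 against 0.049, and without EpiSC 1 the rise in EpiSC was not called (1.08, limma adjusted p = 0.051). Of the 5 values 3 fell on EpiSC 1. Its summed signal of fibroblast markers was 309, below the 341 of EpiSC 3. Its sum for endoderm markers was 11.1, with 2.41, 3.94 and 3.64 on EpiSC 2 to 4, and Pdgfra enters both sums. For primitive streak and mesoderm markers the sum on EpiSC 1 was 5.95, with 1.90, 2.02 and 2.15 on EpiSC 2 to 4. The part of these signals in the values flagged on EpiSC 1 was not tested.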

How the results depend on the processing

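The 9 genes called between EpiSC and 2i_LIF were all called under every alternative run, as were Cdh1, Cdh2, Esrp1, Vim, Zeb1 and Zeb2 between EpiSC and LIF_serum, and Epcam and Esrp1 between each ground state group and LIF_serum. The number of the 9 genes called changed by over 1.5 times in 1 case, 2iSB_LIF against 2i_LIF within slide 2 (3 in place of 0, 1 array against 1). The number of all genes called in that comparison was 13, 8 with a replicate block, 3 in a fit of those groups alone, 2 within slide 1, 2236 within slide 2 and 11 to 27 with 1 array left out (27 without 2iSB_LIF 1). For 2i_LIF against LIF_serum it was 1686 within slide 1, and for 2iSB_LIF 1760 within slide 1 and 4971 within slide 2. With no fold minimum the counts were 8280 (EpiSC against LIF_serum), 4690 (2i_LIF against LIF_serum), 5246 (2iSB_LIF against LIF_serum), 8717 (EpiSC against 2i_LIF) and 8507 (EpiSC against 2iSB_LIF). The replicate block changed no call of the 9 genes. Except where fewer arrays or genes enter a fit, the cause was not tested.

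All differences that changed sign were not called in the full fit, apart from Zeb2 in 2iSB_LIF against LIF_serum, which was 0.45 on the other, dimmer probe. Against LIF_serum, Cdh1 in 2i_LIF was 0.0034 with slide as a block, 0.091 against LIF_serum arrays 1 and 2, 0.51 within slide 2 and −0.53 to 0.096 with 1 array left out. Vim in 2i_LIF was −0.35 against arrays 1 and 2, −0.27 within slide 1 and −0.12 to 0.19 with 1 array left out, and in 2iSB_LIF −0.30, −0.60 and −0.21 to 0.41. Snai2 was 0.090 in 2i_LIF against arrays 3 and 4 and 0.040 in 2iSB_LIF within slide 2. Between 2iSB_LIF and 2i_LIF, Vim was −0.016 with normexp, −0.33 within slide 1 and −0.25 to 0.37 with 1 array left out. Zeb2 was 0.29 as the mean of its probes, 1.1 on the other probe and −0.87 to 0.36 with 1 array left out. Cdh2 was −0.38 and Zeb1 −0.0090 within slide 1, and Snai2 was 0.57 within slide 2. With 1 array left out Cdh1 ran from −0.62 to 0.043, Cdh2 from −0.12 to 0.95, Epcam from −0.40 to 0.0087 and Snai2 from −0.34 to 0.075.

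Other calls that changed were Snai2 in EpiSC with normexp (0.98, under 2-fold), Epcam in EpiSC with quantile normalization (−1.02) and in the authors' deposited table (−1.01), Cdh2 in 2i_LIF with these (−1.47 and −1.40) and with normexp (−1.25), Snai2 in 2iSB_LIF with slide as a block (−1.05), and Zeb1 between EpiSC and 2iSB_LIF in the authors' deposited table (0.95). Snai2 in the ground state was also called within slide 1 (−1.28 and −1.65) and without LIF_serum 3 (−1.05 and −1.18). Normexp was run on median in place of mean signals, and that choice and the other probe were made after seeing the data. Zeb2 in the ground state and the second Esrp1 probe there were limited by background.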
